A study of Mus musculus with 5 samples.

Results

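The channel genes described here are Cacna1c, Cacna1d, Cacna1g and Cacna1h, which encode pore subunits of voltage-gated calcium channels, Cacnb2, which encodes a calcium channel beta subunit, and Hcn4, which encodes the main pacemaker channel of the sinus node. They were chosen by symbol, as every probe set whose platform annotation gives 1 of these 6 symbols and no other. The choice found 7 probe sets of 5 genes, out of 20380 probe sets of 12393 genes. No probe set carried Hcn4 as its only symbol, so Hcn4 was not analysed here. No sodium channel gene is among the 6, and sodium channel subunits are described with the other subunits further on.

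Heart RNA of 5 individual wild-type embryos of the mouse, dissected at E12.5, was read with 1 array each. The array was the Affymetrix mouse 430A, a chip on which each transcript is read by a set of short probes. Per the labels, the embryos were of 129P2/OlaHsd background crossed to C57BL/6 for 2 generations, no treatment is named, and 10 ng of RNA per heart was amplified before labelling. The hearts form 1 group with no second condition, and they keep the replicate numbers 6 to 10 of the labels as names. RNA was prepared from individual hearts, and the labels do not say which shared a litter, so the spread and the p-values given measure only the differences between these 5 samples, with amplification and array error included.

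An action potential begins when the membrane of a heart cell is depolarised. L-type calcium channels, built around Cacna1c or Cacna1d, then open and admit the calcium that triggers contraction, while T-type channels, built around Cacna1g or Cacna1h, open at more negative voltages and take part in pacemaking. The beta subunit carries the pore to the membrane and shapes its opening, and HCN channels pass the inward current that drives the next beat. In the embryonic heart T-type channels are found in working muscle too, whereas in the adult they are largely kept to the conduction system.

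Levels are log2 of the array's intensity with 16 added, so that 1 unit is a doubling for bright probe sets and more than a doubling for dim ones. An array's background was set at the 95th percentile of 66 measured genes of other tissues (lens, retina, germ cells, pancreas, pituitary, kidney and others), and a probe set was called detected when it lay above this level in all 5 hearts. This gave 5.30, 5.49, 5.45, 5.34 and 5.47 for hearts 6 to 10. Probe sets of different genes bind with different strength, so their levels show detection and spread between hearts, not which channel is more abundant. Absence from the detected genes does not show that a channel is not expressed. Whole hearts mix cell types, and fewer cells of a type cannot be told apart from less RNA per cell.

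The arrays looked like heart. All 8 cardiomyocyte markers were detected, among them the contractile genes Tnnt2, Myh6 and Myh7, with a mean level over the 8 from 11.93 in heart 6 to 12.27 in heart 7. Markers of other cells were detected as well, with 6 of 8 endothelial, 5 of 6 smooth muscle and 6 of 7 red cell markers detected, against 1 of 10 neuronal markers (Stmn2) and 1 of 8 skeletal muscle markers (Ckm). Among the detected ones were the smooth muscle genes Acta2 and Tagln, the embryonic globin genes Hbb-y, Hbb-bh1 and Hba-x and the endothelial receptor gene Tek. Myh11 of smooth muscle, the neuronal Elavl3 and the skeletal muscle factors Myod1, Myog and Myf5 were above background in no heart, the neuronal Tubb3 in 2 and the red cell factor Gata1 in 3. Pecam1 and Cdh5, which define endothelium, were the 2 endothelial markers above background in no heart. Heart 7 stood apart in part. The mean level over its red cell markers was 10.61, with a range of 9.51 to 10.03 elsewhere. For the endothelial markers the mean was 6.79, with 7.10 to 7.42 elsewhere. Its Gapdh control ratio of 3' to 5' signal was 5.69, with 2.50 to 3.55 on the other arrays. The same ratio for actin did not set heart 7 apart, at 4.27, with 3.20 to 4.48 on the other arrays and heart 8 highest.

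Both L-type pore genes and 1 of the T-type pore genes gave signal above background. Cacna1c, Cacna1d and Cacna1h were detected, whereas Cacna1g and Cacnb2 exceeded background in no heart. That is 3 of 5 measured genes, beside 50.4% of all genes, and 3 of 7 probe sets, beside 44.5% of all probe sets. The 2 genes above background in no heart stand beside 35.4% of all genes, and the 4 such probe sets beside 39.4% of all probe sets. These shares are near the background, so the count itself says nothing particular about the channel genes. With the 99th percentile as background only Cacna1d kept its call, beside 41.1% of all genes, since Cacna1h was then above background in 4 hearts and Cacna1c in 3.

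**Figure D1:**
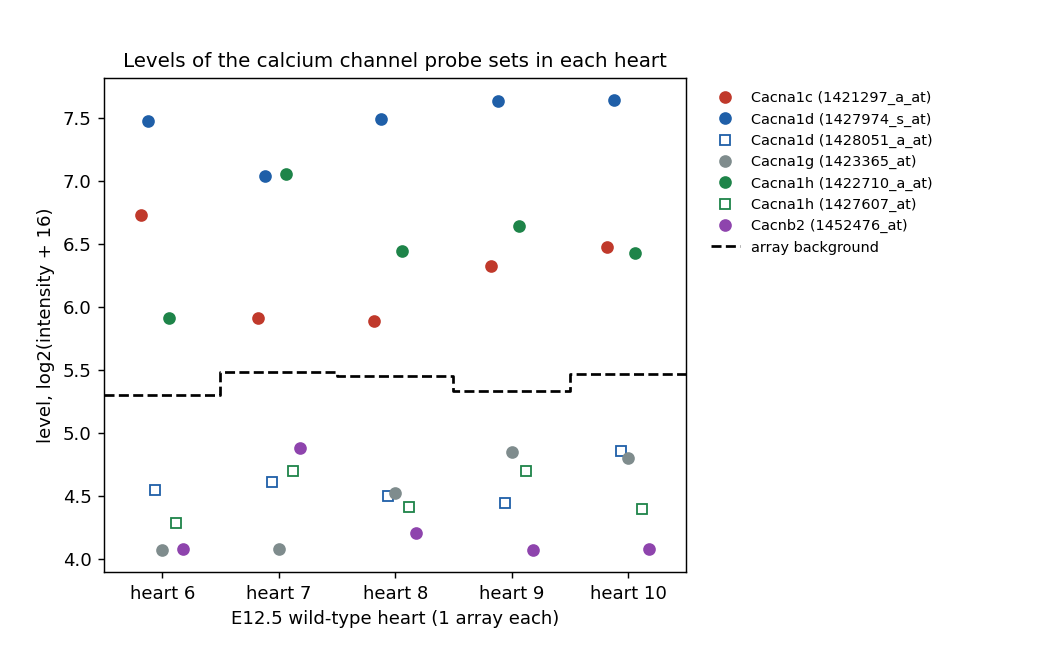
Level, log2(intensity + 16), of the 7 calcium channel probe sets on the vertical axis in each of the 5 hearts on the horizontal axis, 1 point per array, with the array's background as a dashed line. Open squares are a gene's second probe set. The 3 probe sets above the line in every heart are 1 each of Cacna1c, Cacna1d and Cacna1h, and the other 4 lie below it in every heart.

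Cacna1c, the pore of the main L-type channel of ventricular muscle, was measured by probe set 1421297_a_at. Its intensity was 90.5, 44.4, 43.4, 64.5 and 73.2 in hearts 6 to 10. Heart 6 was highest, and hearts 7 and 8 were lowest and close to each other. The level was 6.27 ± 0.36 (SD, n = 5), and it cleared the array's background by 0.43 in heart 7, the narrowest margin, and by 1.43 in heart 6. The ending _a_at marks probes shared by alternative transcripts of a gene, so splice forms of Cacna1c were read together.

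Cacna1d, the pore of the L-type channel that opens at more negative voltages and serves the sinus node and atria, had 2 probe sets that disagreed. Probe set 1427974_s_at read 162.4, 115.8, 164.3, 182.7 and 183.7 in hearts 6 to 10. Heart 7 was the low one and the other 4 lay close together. The level was 7.46 ± 0.24 (SD, n = 5), at least 1.56 above background in every heart. Probe set 1428051_a_at read 7.39, 8.45, 6.68, 5.84 and 13.03 in the same order and lay at least 0.61 below background in every heart. The ending _s_at marks probes that can match transcripts of more than 1 gene, so detection of Cacna1d rests on a probe set that may not be specific. Without probe sets of the endings _x_at and _s_at, Cacna1d was not detected. That left Cacna1c and Cacna1h as the 2 detected channel genes, beside 49.2% of all genes.

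RefSeq gives Cacna1d more than 1 transcription start, and the 150 bases before each of its starts are shown. Which start was used, and which transcripts each probe set matches, was not tested. The windows lie at chr14:30491157-30491306 and chr14:30353487-30353636 of GRCm38.p6, minus strand, and are written 5' to 3' with motif matches in capitals.
Cacna1d, upstream start: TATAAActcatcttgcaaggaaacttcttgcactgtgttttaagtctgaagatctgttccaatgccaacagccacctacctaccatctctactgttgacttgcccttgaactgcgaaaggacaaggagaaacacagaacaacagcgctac
Cacna1d, downstream start: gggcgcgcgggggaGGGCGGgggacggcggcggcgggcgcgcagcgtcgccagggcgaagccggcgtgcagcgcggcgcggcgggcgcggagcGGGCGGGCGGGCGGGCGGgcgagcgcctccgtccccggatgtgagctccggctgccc
The upstream window had 44.0% G and C, with 2 CpG pairs and 1 match to the TATA box TATAAA, at the edge far from the start. The downstream window had 87.3% G and C, with 32 CpG pairs and 5 matches, counting overlapping ones, to the GC box GGGCGG. Both strands were searched. Of 32851 RefSeq windows of this length, 28.6% held a GC box and 7.57% a TATAAA, and their median G and C content was 54.0%. The motif CANNTG (E-box), found in 47.7% of windows, and the GATA motif AGATAA, found in 5.65%, had no match in either window. Promoter entries were matched for Cacna1c, Cacna1d, Cacnb2 and Hcn4, 4 of the 6 genes.

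Cacna1h, the pore of a T-type channel of the embryonic heart, also had 2 probe sets that disagreed. Probe set 1422710_a_at read 44.4, 117.2, 71.5, 84.0 and 70.3 in hearts 6 to 10. Heart 6 was lowest and heart 7 highest, 2.64 times heart 6 in intensity, and the other 3 lay between them. The level was 6.50 ± 0.41 (SD, n = 5), at least 0.61 above background. Probe set 1427607_at read 3.60, 9.99, 5.38, 10.06 and 5.07 and lay at least 0.63 below background in every heart. It too was lowest in heart 6, and its highest values were in hearts 7 and 9. When the probe sets of each gene were averaged, Cacna1h was no longer above background in all hearts. That left 2 detected channel genes, Cacna1c and Cacna1d, beside 45.6% of all genes. The background was not averaged in that setting and still came from the brightest probe set of each gene of other tissues. Averaged genes can thereby fall below it more easily, so the setting is not a like-for-like comparison.

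Cacna1g, the pore of the other T-type channel of the heart, was not detected. Its only probe set, 1423365_at, read 0.900, 0.964, 7.11, 12.9 and 12.03 in hearts 6 to 10. All 5 values lay at least 0.48 below background on the log2 scale, so the differences between hearts are differences below the level read as signal. The level was 4.47 ± 0.38 (SD, n = 5).

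Cacnb2, the main beta subunit of cardiac L-type channels, was also below background in all hearts. Probe set 1452476_at read 0.954, 13.5, 2.47, 0.901 and 0.994 in hearts 6 to 10. Heart 7 alone stood above the rest, still 0.60 below its background. The level was 4.27 ± 0.35 (SD, n = 5). For Cacna1g and Cacnb2 no fold between hearts is given, since both ends lie under the background.

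No channel gene was called more variable between hearts than genes of similar level. Each gene's variance over the 5 hearts was tested against the variance that limma fits for its level, with Benjamini-Hochberg adjustment over all genes. None of the 5 measured channel genes was called, beside 0.0403% of all genes (5 of 12393, namely B3galt6, Ctr9, Eif2s3y, Lancl2 and Xist), and none had an unadjusted p below 0.05, beside 4.45% of all genes. Cacna1h had the largest SD of the 5, 1.47 times the fitted one (unadjusted p = 0.137, adjusted p = 0.960 by limma's variance test). Cacna1c had 1.29 times the fitted SD (adjusted p = 0.960) and Cacna1d 0.89 times (adjusted p = 0.964). Tested singly among all probe sets, of which 0.0442% were called and 4.33% had an unadjusted p below 0.05, none of the 7 did either. The widest range of a detected channel gene was 1.14 on the log2 scale, for Cacna1h, and a p that misses the threshold does not show that the hearts are alike. On simulated data the test called 32 of 100 genes shifted by 2 on the log2 scale in 1 heart, and 100 of 100 shifted by 4. Most shifts of 2 were thus missed, and smaller ones were not simulated.

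**Figure D2:**
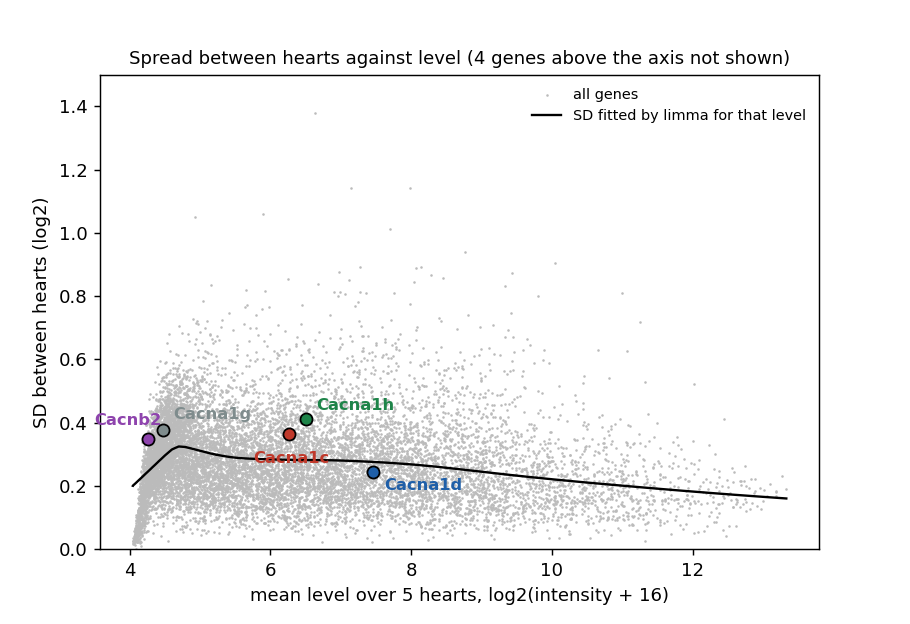
SD between the 5 hearts (vertical axis, log2) against mean level, log2(intensity + 16), for all 12393 genes in grey, with the SD fitted by limma for each level as a line. The 5 measured channel genes are coloured, and they lie within the cloud, Cacna1d below the line and the other 4 above it, while 4 genes with an SD beyond the axis are not drawn.

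Cacna1h had its highest and its lowest level in other hearts than Cacna1c and Cacna1d. Heart 6 was 0.46 above the mean for Cacna1c while the deviation for Cacna1h was -0.58, and heart 7 was below the mean for Cacna1c (-0.35) and Cacna1d (-0.42) and 0.56 above it for Cacna1h. The difference of Cacna1c minus Cacna1h within a heart, after centring, thus ran from 1.05 in heart 6 to -0.91 in heart 7. Its SD was 0.73. For Cacna1d minus Cacna1h the SD was 0.59, and for Cacna1c minus Cacna1d it was 0.31. Cacna1c and Cacna1d also parted in heart 8, at -0.38 and 0.04. Heart 7 held the lowest level for 29.2% of all detected genes and the highest for 30.7%. These differences rest on 5 hearts and were not tested. With 5 hearts no correlation is given. Leaving out heart 7 lowered the SD of Cacna1d from 0.24 to 0.09 and that of Cacna1h from 0.41 to 0.31, and leaving out heart 6 lowered that of Cacna1h to 0.29. The part of the red cell and endothelial markers and of the Gapdh ratio of heart 7 in these differences was not tested.

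**Figure D3:**
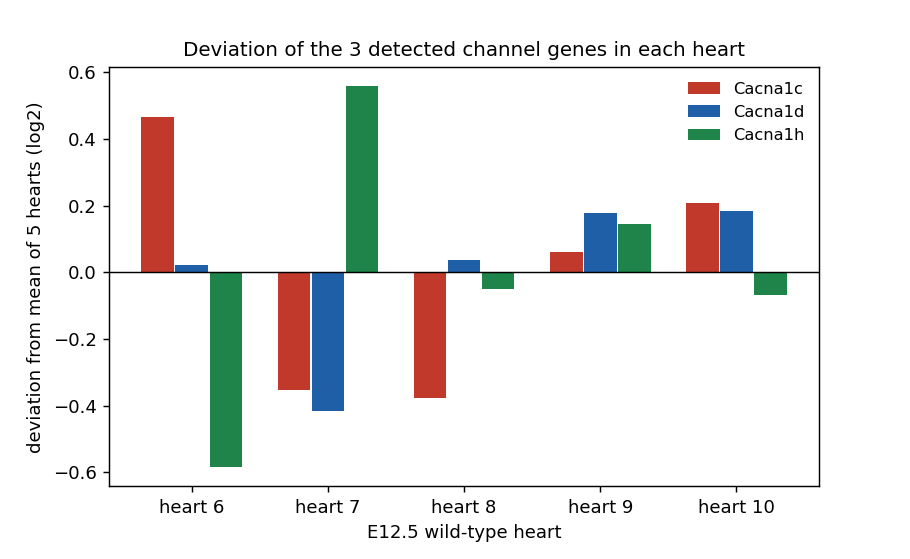
Deviation of each heart from the mean of the 5 hearts (vertical axis, log2) for the detected genes Cacna1c, Cacna1d and Cacna1h, 1 bar per gene and heart. Cacna1c and Cacna1h stand on opposite sides of 0 in hearts 6, 7 and 10.

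The genes closest in pattern were found by the root mean square difference of centred levels over the 5 hearts, among 6250 other detected genes. For Cacna1c they were Simc1 at 0.03, Stk26 at 0.05 and Chek1, a cell cycle checkpoint kinase, at 0.05. For Cacna1d they were Utp11 at 0.03, Mdm2, the ubiquitin ligase of p53, at 0.04 and the adhesion gene Alcam at 0.05. For Cacna1h they were Limd2 at 0.06, Mbd3, a chromatin protein gene, at 0.07 and Nxn at 0.07. Differences below 0.1 were found for 21 genes with Cacna1c, 86 with Cacna1d, whose own SD was the smallest, and 15 with Cacna1h. With 5 hearts and 6250 genes compared, close patterns can arise without any link between genes, and no link was tested.

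Few of the other channel subunits gave signal. Of 38 listed calcium, sodium and HCN subunits, 29 were measured and 2 were detected, beside 50.4% of all genes. Another 3 were above background in part of the hearts and 24 in no heart. Both detected genes encode alpha2delta subunits, extracellular partners that raise the number of calcium channels at the membrane. Cacna2d1 read 69.7, 29.3, 46.95, 44.7 and 30.7 in hearts 6 to 10 (level 5.87 ± 0.37, SD, n = 5), with heart 6 highest and hearts 7 and 10 lowest, and its margin over background in heart 7 was only 0.02. Cacna2d2 read 55.1, 47.4, 61.4, 63.9 and 68.02 in hearts 6 to 10 (level 6.22 ± 0.16, n = 5), a narrow range with heart 7 lowest. In both, the other probe sets of the gene were above background in no heart, so detection rests on 1 probe set each. With probe sets of a gene averaged, but not the background, none of the 29 was detected, beside 45.6% of all genes. Cacna2d3 was above background in no heart.

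No other pore subunit of a calcium channel was detected. Cacna1s, the pore of skeletal muscle, had a level of 4.57 ± 0.23 (n = 5) and exceeded background in no heart, like Cacna1f, Cacna1b and Cacna1e, which are best known from retina and nerve cells. Cacna1a, the pore of presynaptic channels, was above background in 3 hearts, at 5.38 ± 0.20 (n = 5), and below it in hearts 8 and 9. Of 3 other beta subunits listed, only 2 were measured. These, Cacnb1 (4.82 ± 0.42) and Cacnb4 (4.47 ± 0.17), were, like Cacnb2, above background in no heart, so none of the measured beta subunits was. Among 8 gamma subunits, which modulate calcium channels or glutamate receptors, Cacng6 (5.82 ± 0.43) was above background everywhere but in heart 8, and the other 7 in no heart.

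Sodium channel genes, whose products carry the upstroke of the action potential in working heart muscle, were measured in part. Of 8 pore genes measured, Scn10a was above background in hearts 7 and 8 (5.24 ± 0.34, n = 5) and the other 7 in none, with levels from 4.15 for Scn7a to 4.83 for Scn2a. The beta subunit Scn3b (4.47 ± 0.32) was above background in no heart. Of the pacemaker family, Hcn2 (4.67 ± 0.47) and Hcn3 (4.38 ± 0.26) were measured and neither exceeded background in any heart.

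**Figure D4:**
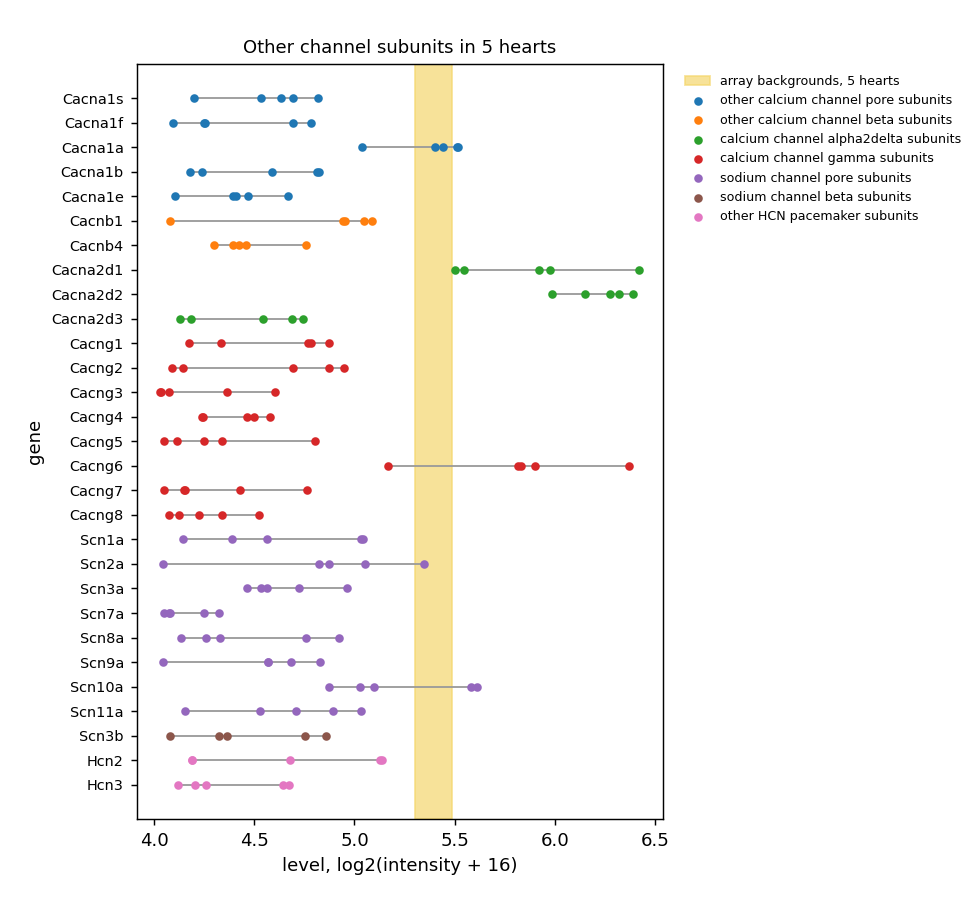
Levels, log2(intensity + 16), on the horizontal axis for 29 measured subunits of calcium, sodium and HCN channels, 1 row per gene, 1 point per heart, with a line over the range and colour by subunit class. The yellow band spans the array backgrounds, 5.30 to 5.49. Only Cacna2d1 and Cacna2d2 lie above their arrays' background in all 5 hearts.

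Genes that regulate these channels were detected at a share near that of all genes. Of 27 measured, 13 were detected (48.1%, beside 50.4% of all genes), 3 (Bin1, Fgf12 and Kcne2) were above background in part of the hearts and 11 in no heart. Of 15 calcium channel regulators, 7 were detected. They included the kinase gene Camk2d, whose product phosphorylates L-type channels, at 6.47 ± 0.44, and Rrad, which encodes a small G protein that holds L-type current down, at 6.92 ± 0.21, whereas the related Rem2 was above background in no heart (4.88 ± 0.28, n = 5 each). Of 6 sodium channel regulators, 4 were detected, namely Fgf13, Ank3, Nedd4l and Rangrf. Fgf13, an intracellular FGF that binds sodium channels, had a level of 6.73 ± 0.37, its relative Fgf12 exceeded background in 4 hearts (6.36 ± 0.64) and Fgf14 in none.

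Of 6 HCN partners and cAMP enzymes, 2 were detected. These were Adcy6, an adenylyl cyclase of the heart that makes the cAMP that opens HCN channels, at 7.65 ± 0.18, and Pde4b, a phosphodiesterase gene, at 7.61 ± 0.34 (n = 5 each). Kcne2, an accessory subunit, was above background in hearts 6 and 8, and Pex5l, a brain partner of HCN channels, Adcy9 and Pde3a in none. Of 6 measured transcription factors listed with the pacemaker, 4 were detected, beside 50.4% of all genes. They were Tbx5, Tbx18, Isl1 at 6.97 ± 0.31 and Tbx3, a repressor of the working muscle programme, at 6.09 ± 0.31. Nkx2-5 was above background in 4 hearts (5.64 ± 0.28). Shox2, which maintains sinus node identity, was above background in no heart (4.96 ± 0.06), as was each measured HCN subunit. The calcium cycling genes downstream of calcium entry were detected in 6 of 7 cases, beside 50.4% of all genes. Among them was Ryr2, the calcium release channel, at 7.58 ± 0.53, with its lowest level in heart 7. Atp2a2, the pump that returns calcium to the store, was at 11.78 ± 0.13. Slc8a1, the sodium-calcium exchanger, was the exception, above background in 3 hearts (5.52 ± 0.11, n = 5).

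**Figure D5:**
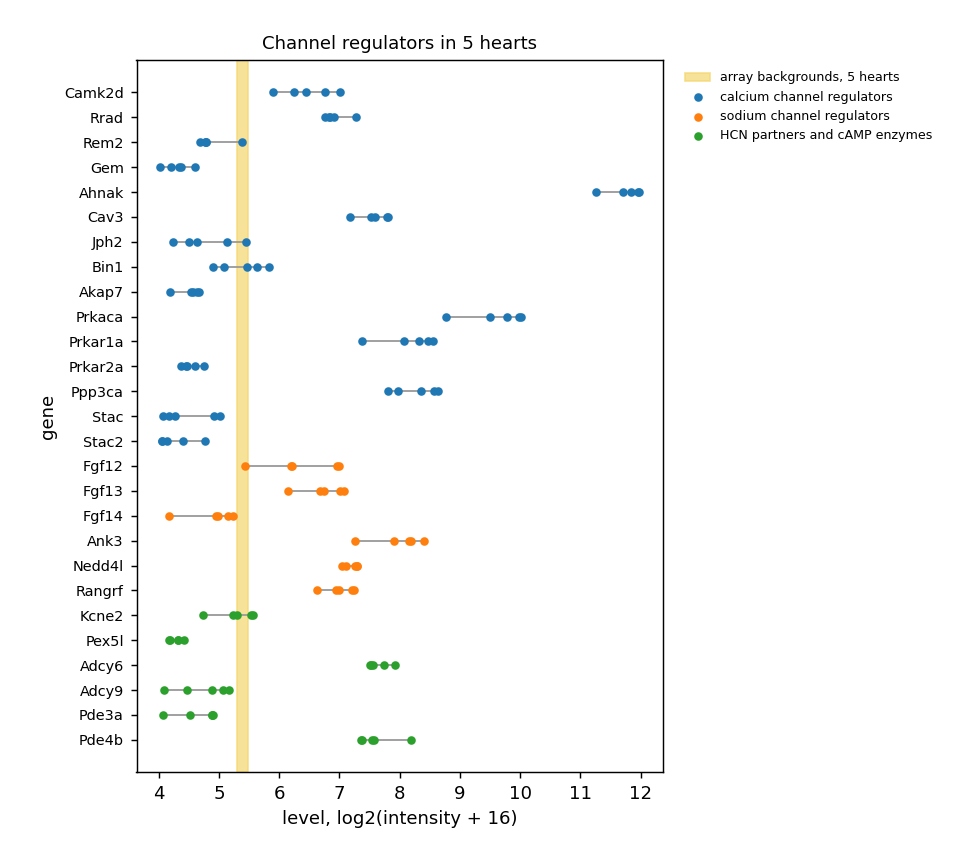
Levels, log2(intensity + 16), on the horizontal axis for 27 measured regulators of calcium, sodium and HCN channels, 1 row per gene, 1 point per heart, coloured by list, with the array backgrounds as a yellow band. The 13 detected genes lie to the right of the band in every heart, and Fgf12 touches it in heart 10.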

How the data were processed

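The authors' deposited values are linear intensities, 1 for each probe set on each array. GCOS is named in the submitters' processing notes, and the sources used here give neither version nor summary algorithm. From the values, the deposited intensities share a 2% trimmed mean of 150.1. Of 22690 probe sets, 20393 have 1 symbol, 691 several and 1606 are not listed in the platform annotation. Symbols were updated through Entrez numbers to GRCm38.p6 names for 20351.

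Intensities were rescaled to a common trimmed mean, by factors of 1.00, and analysed as log2(intensity + 16), which understates folds of dim probe sets. The trimmed mean scale hides differences in total signal. The probe set of highest mean stood for a gene. The variance test used limma 3.58.1 in R 4.3.3, with a robust prior that follows the level (12.06 degrees of freedom for genes) against 4 degrees of freedom per gene, threshold 0.05, and was tested on simulated data drawn from its own model with independent genes. With 1 group there was no contrast. The number of arrays limits the precision.

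By rule, the text names all member probe sets, the first 3 measured genes of each list outside the subunits and, for each detected member, the 3 genes nearest in pattern, and may name any measured subunit and the genes behind a count of 5 or fewer. Other genes were chosen after their values were seen. Members and lists were chosen with earlier results of these data known. Alternatives were scaling, offset, background level and list, hearts required, probe set rules, prior, a filter on dim genes and each heart left out. The bacterial control background was chosen after seeing the data.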

Additional observations from a re-analysis of the deposited data

Results flagged for a closer look

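In 37 values (7 channel probe sets, 29 other subunits and the array background), 1 heart lay far from the other 4 in 4 cases, judged by its distance to the nearest heart as a part of the range over all 5. Chance gives about 1 such case in 20. Cacna1d (1427974_s_at) was low in heart 7, with a ratio of 0.729. Cacnb2 (1452476_at) was high in heart 7, with a ratio of 0.840, all of it below background. Cacna1a (1459996_at) was low in heart 9, with a ratio of 0.758 and an intensity of 16.8 against 26.2 to 29.8 in the others. Cacnb1 (1426108_s_at) was low in heart 10, with a ratio of 0.855 and an intensity of 0.895 against 14.8 to 18.1, all below background.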

How the results depend on the processing

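Cacna1c, Cacna1d and Cacna1h were each above background in all 5 hearts with unscaled values, with quantile normalization and at the 90th percentile background. At the 99th percentile, 1 channel gene and 1 channel probe set were detected (Cacna1d), beside 41.1% of all genes, with Cacna1h above it in 4 hearts and Cacna1c in 3. Detected other subunits numbered 0 at the 99th percentile, 0 with averaged probe sets (beside 45.6% of all genes), 4 when 3 hearts sufficed (57.2%) and 5 against bacterial controls (63.6%). In the setting with averaged probe sets the background itself was not averaged. With each heart left out, detected other subunits numbered 2 to 3, and detected channel genes and probe sets stayed at 3. These counts stand beside 50.7% to 52.1% of all genes. Against bacterial controls the detected channel genes also numbered 3, beside 63.6% of all genes. Cacna1g was then above background in 2 hearts and Cacnb2 in 1. The probe sets 1428051_a_at of Cacna1d and 1427607_at of Cacna1h were above it in 2 hearts and 1 heart.

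No member was called variable under any of 14 alternatives at gene level, with a lowest adjusted p of 0.939. Over all genes, limma's variance test called 8 at offset 1, 2 without a robust prior, 2 without trend, 1 with averaged probe sets and 3 to 9 with a heart left out (9 without heart 7, 3 without heart 8). Over all probe sets, it called 17 at offset 1, 4 without dim ones, 2 without a robust prior, 1 without trend, 5 without _x_at and _s_at sets and 4 to 16 with a heart left out (16 without heart 7, 4 without heart 8). The cause of these changes was not tested. No paired analysis was possible because there is 1 group. Signal over background limits Cacna1g, Cacnb2 and most other subunits.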

Other observations

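Among the 13 detected channel regulators, 9 had their lowest level in heart 7, beside 29.2% of all 6251 detected genes. Subunits of protein kinase A, which phosphorylates L-type channels under adrenergic stimulation, were among them. Prkaca, a catalytic subunit, stood at 8.77 there, with 9.49 to 10.02 elsewhere, and Prkar1a, a regulatory subunit, at 7.37, with 8.07 to 8.55 elsewhere. Ank3, an ankyrin that anchors sodium channels, stood at 7.26, with 7.90 to 8.40 elsewhere. Adcy6, Rrad, Nedd4l and Rangrf, in contrast, were highest in heart 7. Heart 7 held the highest level for 30.7% of detected genes, so it was the extreme heart in both directions. The same array had red cell markers at a mean of 10.61 (9.51 to 10.03 elsewhere), endothelial markers at 6.79 (7.10 to 7.42) and a Gapdh 3' to 5' ratio of 5.69 (2.50 to 3.55), and their part in these levels was not tested. None of these regulators was called by limma's variance test, the lowest adjusted p among the measured regulators being 0.864.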
